A study of Mus musculus with 11 samples.

Results

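The genes of hepatic fatty acid synthesis, together with Me1, were described across livers of FVB/NJ mice carrying hepatocellular carcinoma that was induced by MET and β-catenin expression, the first a growth factor receptor and the second the effector of canonical Wnt signalling. The 10 genes Fasn, Acaca, Acly, Scd1, Elovl6, Me1, Srebf1, Thrsp, Pnpla3 and Mlxipl were taken by name from a table of 43346 genes, and each name matched 1 row. All 10 passed the filter on low counts.

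RNA sequencing libraries of liver comprised 6 labelled as responders to anti-PD-1, an antibody that blocks an inhibitory receptor of T cells, 4 labelled as non-responders, and 1 with the response label of no treatment. Anti-PD-1 is also the treatment label of this last library, which is named untreated after its response label alone. All 11 share the strain, the tissue and the tumour induction, and the labels give no age, feeding state or hour of collection. The labels do not say whether each library is of its own animal, so the p-values speak of spread among libraries, which may be technical. Total gene counts ran from 17876515 to 40565708 in responders and from 25542066 to 39941835 in non-responders, and were 49884800 in the untreated library. In tissue RNA of this kind, fewer cells of a type and less RNA per cell cannot be told apart.

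Hepatocytes turn surplus carbohydrate into fat in the cytosol. Citrate exported from mitochondria is cleaved to acetyl-CoA by ATP citrate lyase (Acly), carboxylated to malonyl-CoA by acetyl-CoA carboxylase (Acaca) and condensed to palmitate by fatty acid synthase (Fasn), with NADPH supplied in part by cytosolic malic enzyme (Me1). Palmitate is then lengthened by Elovl6 and desaturated by Scd1. The pathway is induced by insulin through the transcription factor SREBP-1c, a product of Srebf1, and by glucose through ChREBP, the product of Mlxipl. Thrsp encodes Spot14, a lipogenic protein named for its response to thyroid hormone, and Pnpla3 encodes a lipid droplet protein whose human variants are known from fatty liver disease.

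The promoter letters of 4 genes are shown, because Me1 separated the response groups, Pnpla3 varied most between libraries, Fasn varied least, and Srebf1 starts from alternative first exons. They are RefSeq sequences of the GRCm38.p6 reference, not of the FVB/NJ strain, and run 5′ to 3′ over the 250 bases before a RefSeq start. Capitals mark CCAAT (the NF-Y motif) and GGGCGG (the GC box) on either strand. In Fasn a CCAAT on one strand and its complement on the other overlap, at bases -62 to -55 from the start.
Me1 (chr9:86695915-86696164, minus strand): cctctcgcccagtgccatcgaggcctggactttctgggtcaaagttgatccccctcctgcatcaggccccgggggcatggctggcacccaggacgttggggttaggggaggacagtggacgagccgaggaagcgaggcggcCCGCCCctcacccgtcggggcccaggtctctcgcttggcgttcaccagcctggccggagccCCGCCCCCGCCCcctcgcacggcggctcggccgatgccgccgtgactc
Pnpla3 (chr15:84167566-84167815, plus strand): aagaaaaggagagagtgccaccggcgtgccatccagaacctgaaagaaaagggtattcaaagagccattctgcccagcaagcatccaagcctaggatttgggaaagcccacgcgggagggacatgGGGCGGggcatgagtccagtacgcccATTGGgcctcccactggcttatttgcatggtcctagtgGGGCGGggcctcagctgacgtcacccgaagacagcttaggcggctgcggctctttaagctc
Fasn (chr11:120824548-120824797, minus strand): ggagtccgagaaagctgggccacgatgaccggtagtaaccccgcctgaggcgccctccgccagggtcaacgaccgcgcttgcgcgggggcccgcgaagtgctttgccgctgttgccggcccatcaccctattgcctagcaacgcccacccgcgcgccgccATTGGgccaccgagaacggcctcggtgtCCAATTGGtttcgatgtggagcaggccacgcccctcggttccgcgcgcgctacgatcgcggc
Srebf1, upstream start (chr11:60220628-60220877, minus strand): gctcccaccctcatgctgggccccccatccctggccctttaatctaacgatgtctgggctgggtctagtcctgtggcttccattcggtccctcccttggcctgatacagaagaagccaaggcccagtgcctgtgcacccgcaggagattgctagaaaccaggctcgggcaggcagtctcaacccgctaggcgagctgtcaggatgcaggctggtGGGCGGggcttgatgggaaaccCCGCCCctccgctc
Srebf1, downstream start (chr11:60210472-60210721, minus strand): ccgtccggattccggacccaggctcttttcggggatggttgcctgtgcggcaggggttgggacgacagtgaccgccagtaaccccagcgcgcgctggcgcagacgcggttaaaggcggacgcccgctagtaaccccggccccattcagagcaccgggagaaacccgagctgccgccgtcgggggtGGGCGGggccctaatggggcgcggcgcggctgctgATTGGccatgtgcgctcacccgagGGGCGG

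Motifs were searched on both strands in 13 RefSeq windows of 300 bases, 250 before and 50 after a start, which covered 9 of the 10 genes. CCAAT was present in 8 of these windows, of 7 genes, and in 37.4% of 32851 windows of all genes. GGGCGG was present in 6 windows, of 5 genes, and in 35.7% of all windows. The sterol regulatory element TCACNCCAC, to which SREBP proteins bind, was matched in 1 Mlxipl window and in 1.2% of all windows. The E-box CACGTG was matched in another Mlxipl window and in 7.2% of all windows. TGACNNNGC, the core of the antioxidant response element through which NRF2 acts, was matched in 1 window, that of Me1, and in 12.4% of all windows. It lies across the RefSeq start of Me1, at bases -6 to 3, and is shown in capitals within 30 bases.
Me1 start (chr9:86695902-86695931, minus strand): cgatgccgccgTGACTCAGCgcttctcgcg

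Me1 was the 1 gene of the 10 that passed the test between responders and non-responders. Fatty acid synthase, acetyl-CoA carboxylase, the elongase, the desaturase and both transcription factors did not pass, and their group means differed by less than 2-fold. Values are CPM, gene counts as a share of library size after TMM scaling, and fold changes are from edgeR's quasi-likelihood test over 17610 genes with Benjamini-Hochberg adjustment. At an adjusted p under 0.05, 4.11% of all tested genes were higher in responders, 5.82% were lower and 9.93% were called in either direction, so 1 higher and 0 lower among 10 genes is near these shares. The same test gave 3 genes at an unadjusted p under 0.05, all of them higher in responders, where 27.3% of all genes reached that level in either direction. DESeq2 called 3 of the 10 higher and 0 lower, where it called 7.94% of all genes higher and 9.45% lower. By limma-voom 1 was higher and 1 lower, with 5.12% and 6.27% of all genes. The median log2 fold change of the 10 genes was 0.17, against -0.016 over all tested genes.

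**Figure D1:**
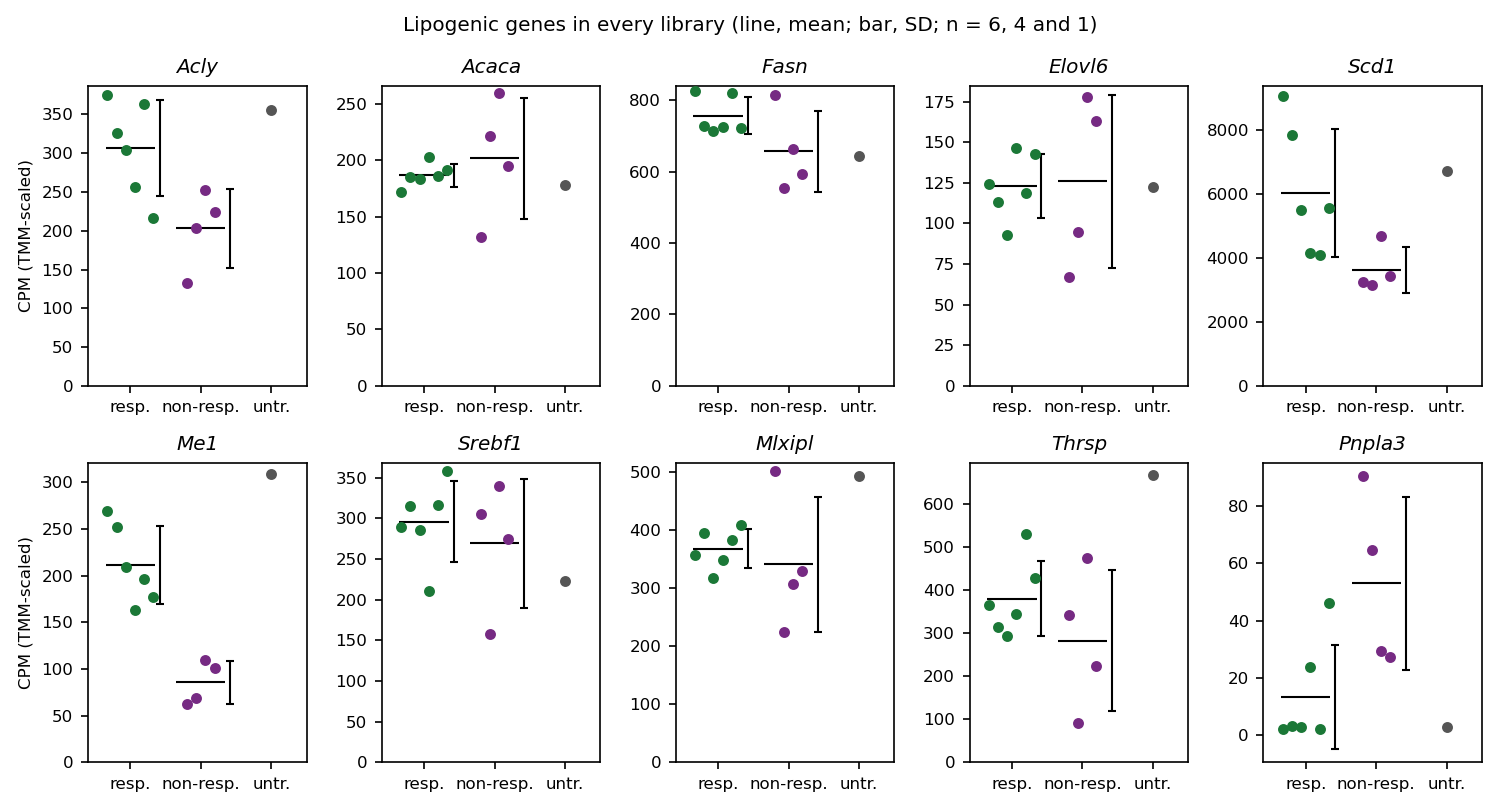
Gene levels in CPM (TMM-scaled, linear axis) of the 10 genes in each library, with responders (n = 6) left of non-responders (n = 4) and the untreated library (n = 1) last; points are libraries in replicate order, lines are means and bars SD. Me1 shows no overlap between responders (163 to 269 CPM) and non-responders (62.3 to 109.8 CPM), and Pnpla3 runs from 2.10 to 46.0 CPM within responders.

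Me1 (ENSMUSG00000032418, mm10 chromosome 9, 86581371 to 86695953) makes NADPH as it converts malate to pyruvate. It stood at 269, 252, 209, 163, 197 and 178 CPM in responder replicates 1 to 6, at 62.3, 69.5, 109.8 and 101.0 CPM in non-responder replicates 1 to 4, and at 309 CPM in the untreated library. Every responder lay above every non-responder, and the untreated library lay above all 10 treated ones. Among responders Me1 was lowest in replicates 4 and 6, which had the most Pnpla3 and Afp of the group, as given below. Over all 11 libraries Me1 and Pnpla3 had Pearson r = -0.868 on log2 CPM. Me1 was higher in responders, at 211 ± 41.7 CPM (SD, n = 6) against 85.7 ± 23.3 CPM in non-responders (SD, n = 4). Its fold change was 1.30 ± 0.21 on the log2 scale (SE, adjusted p by edgeR = 0.0148). Of all tested genes, 5.60% had every responder above every non-responder, 5.66% every responder below, and 11.3% either. Without non-responder replicate 2 the call was lost, with a log2 fold change of 1.22 and adjusted p by edgeR = 0.0512. It was also lost with the title number of each sample, 1 to 29 in responders and 26 to 37 in non-responders, as a covariate (1.04 ± 0.32 SE, adjusted p by edgeR = 0.427) and with the exon index described below as a covariate (0.70 ± 0.20 SE, adjusted p by edgeR = 0.762).

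The higher Me1 count in responders ran along the whole transcript. Each of its 14 exons had a higher mean in responders and separated the groups, with log2 ratios of the group means between 0.93 and 1.69 and a median of 1.43. The ratios were larger toward the 5′ end, at 1.685 in exon 1, 1.27 in exon 13 and 0.93 in exon 14. The part of the 3′ coverage of non-responder replicate 1, described below, in this slope was not tested. These exons are read in the same libraries and are no further evidence for the Me1 difference. An antisense gene, A330041J22Rik, shares 30 of the 3848 exon bases of Me1, or 0.78%, and had 2.19% of its count. The strand setting of the counting is not given in the sources used here.

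Acly (ENSMUSG00000020917, chromosome 11, 100476353 to 100528000) supplies the acetyl-CoA for the pathway. It stood at 375, 327, 304, 256.5, 363 and 217 CPM in responder replicates 1 to 6 and at 133, 203, 253 and 224 CPM in non-responders. Responder replicates 4 and 6, the lowest of their group, lay near the upper non-responders, and the groups overlapped in replicate 6 alone among responders. The log2 fold change of Acly was 0.59 ± 0.21 (SE), which did not pass (adjusted p by edgeR = 0.0875), while DESeq2 called it (adjusted p = 0.0362). With the exon index as a covariate the log2 fold change of Acly was -0.069 ± 0.20 (SE, adjusted p by edgeR = 0.952).

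Acaca (ENSMUSG00000020532, chromosome 11, 84129672 to 84401651), the carboxylase that makes malonyl-CoA, had 172 to 203 CPM in responders, with a median of 185. Non-responders ran from 132 CPM in replicate 1 to 259 CPM in replicate 3 and enclosed the responders. Its log2 fold change was -0.11 ± 0.16 (SE, adjusted p by edgeR = 0.700). Fasn (ENSMUSG00000025153, chromosome 11, 120805940 to 120824178), the multifunctional enzyme that builds palmitate, stood at 826, 729, 715, 725, 820.0 and 723 CPM in responders and at 815, 555, 662 and 594 CPM in non-responders. Non-responder replicate 1 lay among the responders and the other 3 below them. The log2 fold change of Fasn was 0.20 ± 0.14 (SE, adjusted p by edgeR = 0.382). By exon, 40 of 43 had a higher mean in responders, with a median log2 ratio of 0.39, and 12 separated the groups. The last exon, with the most reads, had a log2 ratio of -0.36. The part of the 3′ coverage of non-responder replicate 1, described below, in the Fasn gene count and exon ratios was not tested. The share of all exons that separate the groups was not computed, so 12 of 43 cannot be read as a trait of Fasn. Over the 10 treated libraries the highest Fasn value was 1.49 times the lowest, the narrowest range of the 10 genes.

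Elovl6 (ENSMUSG00000041220, chromosome 3, 129532386 to 129638495), which lengthens palmitate, had 92.9 to 146 CPM in responders, with a median of 122, and 67.3, 94.9, 178 and 163 CPM in non-responders. The responders lay inside the range of the non-responders, and the log2 fold change was -0.032 ± 0.25 (SE, adjusted p by edgeR = 0.949). Scd1 (ENSMUSG00000037071, chromosome 19, 44394451 to 44407709), the desaturase that makes oleate and palmitoleate, stood at 9070, 7838, 5497, 4145, 4092 and 5554 CPM in responders and at 3235, 3149, 4689 and 3423 CPM in non-responders. Responder replicates 1 and 2 were highest, and replicates 4 and 5 lay below non-responder replicate 3. The log2 fold change of Scd1 was 0.74 ± 0.26 (SE), which did not pass (adjusted p by edgeR = 0.0936), while DESeq2 called it (adjusted p = 0.0234). Scd1 has close relatives, Scd2, Scd3 and Scd4, so reads could be split between them. Scd2 averaged 53.7 ± 63.9 CPM in responders (SD, n = 6) and 147 ± 64.0 CPM in non-responders (SD, n = 4) and did not pass (adjusted p by edgeR = 0.275). It had 9.13 to 17.9 CPM in responder replicates 1, 2, 3 and 5 and 13.3 CPM in the untreated library. Responder replicates 4 and 6 had 100.8 and 163.3 CPM of Scd2, and non-responders 105.6 to 242.5 CPM.

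Srebf1 (ENSMUSG00000020538, chromosome 11, 60199089 to 60222581) had 289, 316, 285, 210.5, 317 and 359 CPM in responders and 305, 158, 340 and 274 CPM in non-responders. Non-responder replicate 2 was lowest and the groups overlapped otherwise, with a log2 fold change of 0.14 ± 0.21 (SE, adjusted p by edgeR = 0.719). Its exons share 109 bases with Rai1 on the other strand, at 7.13% of the Srebf1 count. Mlxipl (ENSMUSG00000005373, chromosome 5, 135106891 to 135138382) had 318 to 408 CPM in responders, with a median of 370.2, and 502, 224, 308 and 329 CPM in non-responders. The non-responders enclosed the responders, and the log2 fold change of Mlxipl was 0.11 ± 0.20 (SE, adjusted p by edgeR = 0.753).

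Thrsp (ENSMUSG00000035686, chromosome 7, 97412938 to 97417730) had 367, 315, 294, 345, 531 and 428 CPM in responders, 343, 92.1, 474 and 223 CPM in non-responders, and 668 CPM in the untreated library. The untreated library was above all treated ones and non-responder replicate 2 far below the rest. Thrsp had a log2 fold change of 0.42 ± 0.36 (SE, adjusted p by edgeR = 0.480). Non-responder replicate 2 was the lowest treated library for 5 of the 10 genes (Fasn, Scd1, Srebf1, Thrsp and Mlxipl), and non-responder replicate 1 for 4 (Acaca, Acly, Elovl6 and Me1). Replicate 2 also stood apart in clock genes chosen for display after their values were seen. The clock activator Arntl had 17.1 CPM there and 1.16 to 5.89 CPM in the remaining treated libraries, and the output gene Dbp 27.7 CPM there and 75.2 to 155 CPM elsewhere. Replicate 1 stood apart in coverage: reads lay toward the 3′ ends of genes, where a log2 index of later over earlier exons was 1.31 and ran from -0.055 to 0.160 in the remaining 9 treated libraries. With this index as a covariate Me1 had a log2 fold change of 1.17 (adjusted p by edgeR = 0.0184), and the other 9 genes did not pass. Without non-responder replicate 1 the Me1 value was 1.18 (adjusted p by edgeR = 0.0182). The part of the clock genes in the low values of replicate 2 was not tested.

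Pnpla3 (ENSMUSG00000041653, chromosome 15, 84167816 to 84189512) had 2.10, 3.37, 2.68, 23.8, 2.21 and 46.0 CPM in responder replicates 1 to 6, and 90.4, 64.6, 29.5 and 27.4 CPM in non-responders. It stood at 2.84 CPM in the untreated library. Responders 1, 2, 3 and 5 and the untreated library shared a low level, while responders 4 and 6 lay in or just under the range of the non-responders. The highest treated library had 43.1 times the lowest, the widest range of the 10 genes. With a log2 fold change of -1.99 ± 0.93 (SE), Pnpla3 did not pass (adjusted p by edgeR = 0.199). It passed without responder replicate 6 (log2 fold change -2.98, adjusted p by edgeR = 0.0453) and by limma-voom (-2.99, adjusted p = 0.0316). All 8 exons of its listed transcript had lower means in responders, with log2 ratios between -2.05 and -1.68, and none separated the groups.

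Afp and Gpc3 were low in the same 5 libraries. Axin2 and Lgr5 were also lowest there, by smaller margins, and Mki67, Top2a and Glul were not uniformly so. Afp, the fetal serum protein re-expressed in liver tumours, had 1.73, 1.38, 2.28, 121.6, 2.13 and 99.8 CPM in responder replicates 1 to 6, 116 to 381 CPM in non-responders and 1.70 CPM in the untreated library. Gpc3, an oncofetal proteoglycan, had 0.236 to 0.565 CPM in responders 1, 2, 3 and 5, 86.3 and 119.9 CPM in responders 4 and 6, 114 to 494.5 CPM in non-responders and 0.921 CPM in the untreated library. Of the 7 tumour markers 1, Lgr5, was lower in responders (-1.17, adjusted p by edgeR = 0.0346, and in 4 of 10 fits that left out 1 library), and their sum was 336 to 1300.0 CPM in responders, 822 to 2372 CPM in non-responders and 301 CPM in the untreated library. Axin2 had 5.65 to 11.5 CPM in responders 1, 2, 3 and 5 and 6.22 CPM in the untreated library. In responders 4 and 6 Axin2 had 27.3 and 13.8 CPM, and in non-responders 17.5 to 36.4 CPM. Lgr5 ran from 3.48 to 10.85 CPM in the same 5 libraries and from 11.84 to 29.65 CPM in the rest. The proliferation genes Mki67 and Top2a had 33.8 and 24.1 CPM in responder replicate 3, inside or above the non-responder ranges of 17.1 to 39.0 and 8.31 to 23.3 CPM. Glul, a Wnt target, had 496 CPM in responder replicate 2 and 450.4 CPM in replicate 6. Afp and Gpc3 did not pass between the groups (adjusted p by edgeR = 0.217 and 0.289). Igfbp1, an insulin-repressed gene picked after its values were seen, had 3.23 to 7.32 CPM in the low responders, 102.9 and 111.1 CPM in responders 4 and 6, 134 to 1022 CPM in non-responders and 7.02 CPM in the untreated library, and did not pass (adjusted p by edgeR = 0.0697).

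An exon index was also higher in the libraries with high Pnpla3. It is the mean log2 read density of exon 12 of Ctnnb1 and exon 17 of Met relative to the other exons of each gene, centred on the median of the treated libraries. The index was -0.857, -1.09, -0.962, -0.077, -1.04 and 0.123 in responder replicates 1 to 6, 1.09, 0.869, 0.077 and 0.102 in non-responders and -0.955 in the untreated library. With the index as a covariate Pnpla3 had a log2 fold change of 0.44 ± 0.47 (SE, adjusted p by edgeR = 0.854), and 0 of all tested genes were called, with 1078 at an unadjusted p under 0.05. The part of tumour gene levels in the differences of Me1 and Pnpla3 was not tested.

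**Figure D2:**
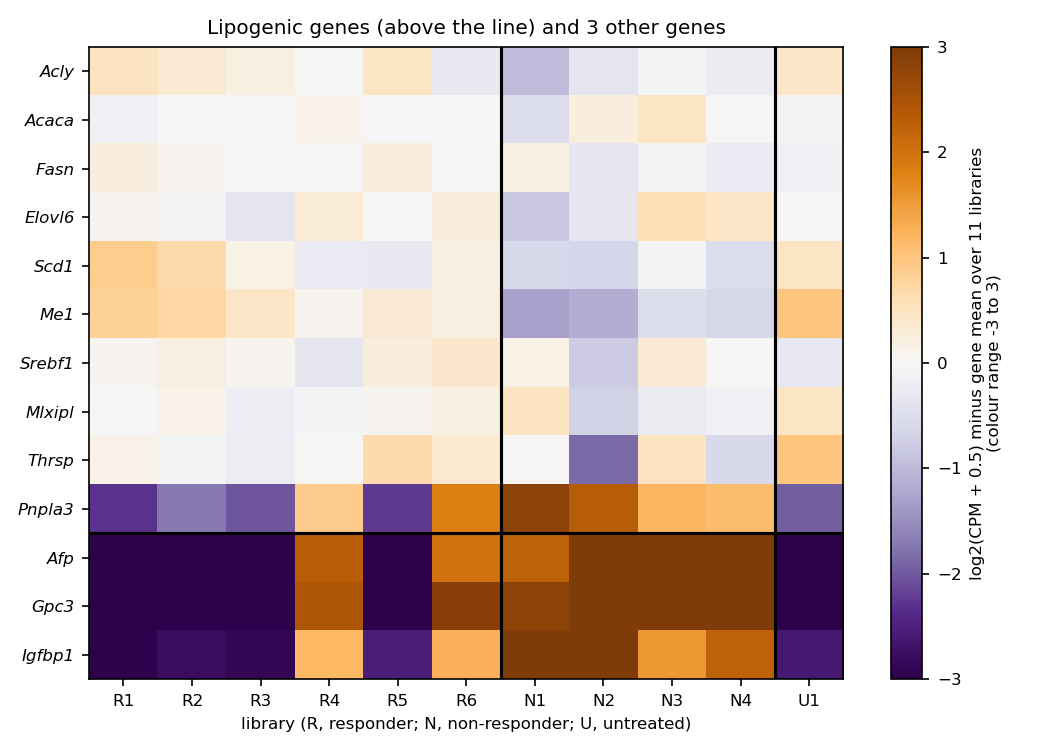
Log2(CPM + 0.5) minus the gene's mean over the 11 libraries, coloured from -3 to 3, for the 10 lipogenic genes and, under the line, Afp, Gpc3 and Igfbp1; columns are responder (R), non-responder (N) and untreated (U) libraries. Pnpla3 is low in R1, R2, R3, R5 and U1, the libraries where Afp, Gpc3 and Igfbp1 are low, and Fasn and Acaca stay near their means.

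**Figure D3:**
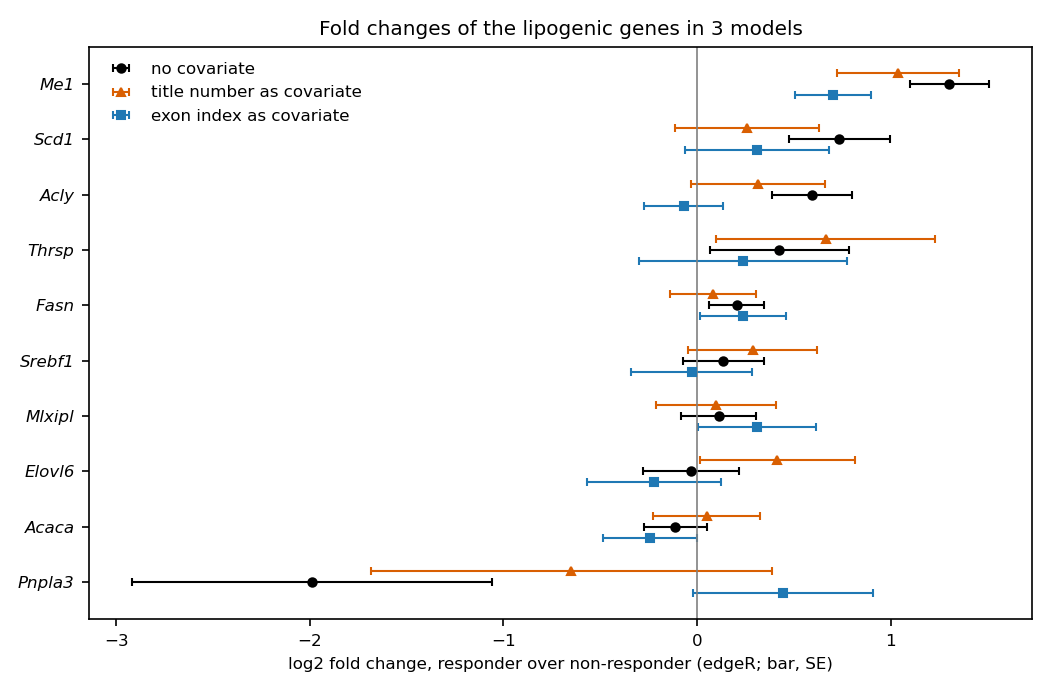
Log2 fold changes of responder over non-responder (edgeR; bars, SE) for the 10 genes without a covariate, with the title number and with the exon index as covariates. Me1 is at 1.30 without a covariate, 1.04 with the title number and 0.70 with the exon index, and passes only in the first of these 3 models; Pnpla3 moves to 0.44 with the exon index.

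Ratios of Me1 to the other lipogenic genes set its difference against theirs. They rest on the same Me1 values as above and are no further evidence for its difference. The log2 ratio of Me1 to each of the other 9 genes was compared between 6 responders and 4 non-responders by a two-sided exact permutation test over libraries, with adjustment over the 9 ratios. For 8 of them every responder had a higher ratio than every non-responder, which gives an exact permutation p = 0.00952, the smallest p this design allows, and an adjusted p = 0.0107. The ratios share Me1 and are not independent of each other. Me1 itself separated the groups, so its ratio to any gene of small group difference would tend to separate them too. The share of all genes whose ratio to Me1 does so was not computed, so 8 of 9 cannot be read as a trait of the lipogenic genes. The ratio of Me1 to Fasn was -1.86 ± 0.26 in responders and -2.96 ± 0.53 in non-responders (SD, n = 6 and n = 4), a difference of 1.10 on the log2 scale (exact permutation adjusted p = 0.0107). Among these 8, the differences were smallest for Scd1 (0.63) and Acly (0.71), the 2 genes whose own CPM was nearest to passing, and were between 1.14 and 1.39 for Acaca, Elovl6, Srebf1 and Mlxipl. The ratio of Me1 to Pnpla3 differed by 4.11. The ratio to Thrsp overlapped between the groups, with a difference of 0.69 (exact permutation adjusted p = 0.190).

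**Figure D4:**
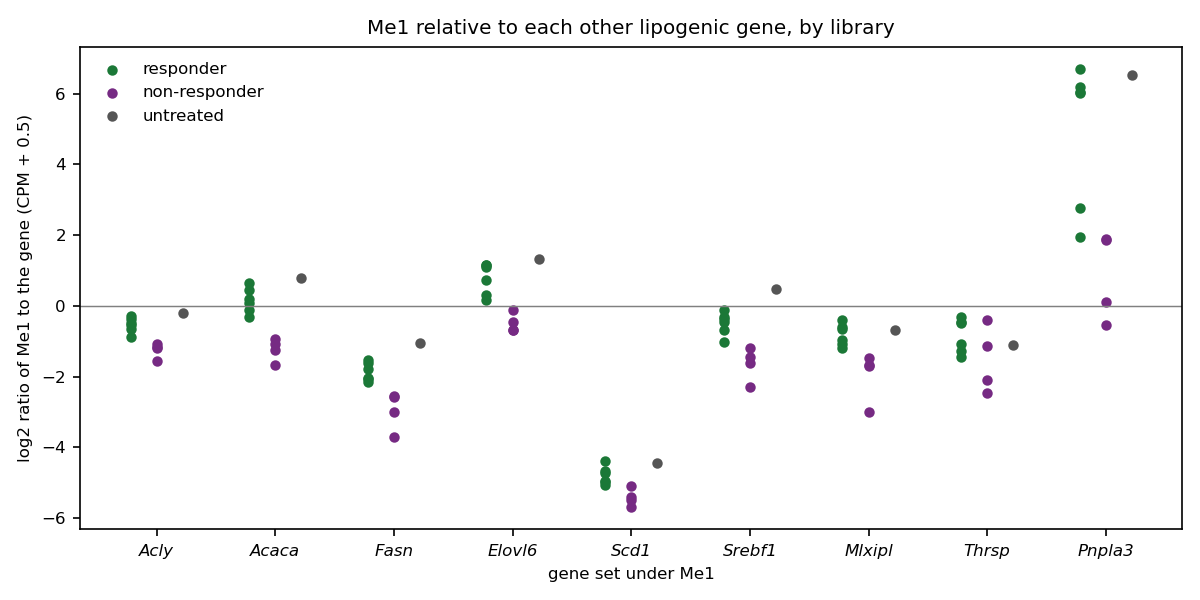
Log2 ratio of Me1 to each other lipogenic gene (CPM + 0.5) in every library, with responders left, non-responders in the middle and the untreated library right. Responders lie above non-responders for 8 of 9 genes, with overlap for Thrsp.

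Per kilobase of the length that the deposited table gives each gene, which for Me1 and Srebf1 equals all their exon bases, the levels of the 10 genes in responders ran from Scd1, at 1247 ± 417 CPM per kb (SD, n = 6), to Pnpla3, at 2.88 ± 3.90. Thrsp followed Scd1 at 298 ± 68.3 CPM per kb. Fasn (76.8 ± 5.25), Mlxipl (68.6 ± 6.24), Acly (58.1 ± 11.6), Me1 (54.9 ± 10.9) and Srebf1 (52.5 ± 8.77) formed a middle group in which neighbours differed by less than the sum of their SDs. Elovl6 stood at 20.7 ± 3.33 and Acaca at 12.3 ± 0.661 CPM per kb. For Pnpla3 the deposited length was 4640 bases, against 1548 exon bases in the annotation used for gene overlaps. Its value per kb therefore depends on the length taken. The lengths of Elovl6 (5951 against 6431) and Mlxipl (5367 against 5538) differed by less. In non-responders Me1 stood at 22.3 ± 6.05 CPM per kb (SD, n = 4), beside Elovl6 at 21.1 ± 8.94. In the untreated library Me1, at 80.3 CPM per kb, was above Acly and Fasn, at 67.4 and 65.3.

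Srebf1 reads on alternative first exons were few and did not separate the groups. Exons at 60220453 to 60220604 (upstream) and 60210336 to 60210465 (downstream) of chromosome 11 are both spliced to the same second exon. Srebf1 is known to make SREBP-1a and SREBP-1c from alternative first exons, and the annotated exons were not assigned to these products here. A further annotated first exon, farther upstream, was not used. The upstream exon took 23.6%, 25.8%, 31.5%, 35.3%, 29.4% and 27.3% of the reads on both in responder replicates 1 to 6, and 41.4%, 48.5%, 20.2% and 23.8% in non-responders. It took 35.8% in the untreated library. The downstream exon held the majority of these reads in every library. Treated libraries had 68 to 327 reads on both exons together. The widest 95% Wilson interval was 30.6% to 53.1%, in non-responder replicate 1, and such intervals cover counting error only. Responders averaged 28.8% ± 4.20 (SD, n = 6) and non-responders 33.5% ± 13.6 (SD, n = 4), and the difference of -4.67 percentage points was within the spread (two-sided exact permutation p = 0.429). Without non-responder replicate 2 the difference was 0.33 points.

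Some other genes of fatty acid synthesis and of related lists passed. Of all tested genes 4.11% were higher, 5.82% lower and 9.93% called in either direction, with 27.3% at an unadjusted p under 0.05. The counts of this list and of those below are to be set beside these shares, and no list was tested as a set. Of the genes of the synthesis, NADPH, NRF2, regulator, cholesterol, glyceride and carbohydrate lists named as passing, Irs2 passed in all 10 fits that left out 1 library, Insig1 and Mogat1 in 9 and Fitm2 in 8. Acsl1, Mthfd1, Nqo1, Srxn1, Gpi1 and Ebp passed in 6, and Tm7sf2 and Slc2a4 in 5. The others passed in 4 or fewer, with Elovl7 in 1 and Mcat, Gpd1, Ppargc1b and Gstm3 in 2. Of 24 further genes of synthesis, elongation and desaturation 3 were higher and 1 lower in responders, and 20 did not pass. Their median log2 fold change was 0.12, and 10 had an unadjusted p under 0.05 in edgeR's test. Acss2, which makes acetyl-CoA from acetate, was higher in responders, at 224 ± 90.3 CPM (SD, n = 6) against 102.4 ± 19.6 CPM in non-responders (SD, n = 4). The groups overlapped, with a log2 fold change of 1.13 ± 0.30 (SE, adjusted p by edgeR = 0.0363). The untreated library had 237 CPM of Acss2. Acsl1, which activates fatty acids to their CoA esters, had 0.96 (adjusted p by edgeR = 0.0352) and the mitochondrial enzyme gene Mcat 0.40 (adjusted p by edgeR = 0.0394). Elovl7, an elongase, was lower in responders, at 2.10 ± 2.498 CPM (SD, n = 6) against 11.8 ± 4.18 CPM in non-responders (SD, n = 4). Its log2 fold change was -2.53 (adjusted p by edgeR = 0.0472), and the untreated library had 0.389 CPM. Within responders Elovl7 was highest in replicates 4 and 6, at 6.76 and 3.15 CPM, where the others had 0.403 to 0.978 CPM. The citrate carrier gene Slc25a1 had a log2 fold change of 0.27, Acacb, the other acetyl-CoA carboxylase gene, 0.66, and the Thrsp relative Mid1ip1 0.0086, and none passed. Nor did the polyunsaturated fatty acid genes Elovl5 (0.34), Fads1 (-0.032) and Fads2 (-0.33).

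NADPH can also come from the pentose phosphate pathway and from folate metabolism. A list of 12 genes of NADPH supply held genes of these routes and, from outside them, Idh1, Idh2, Me2, Me3 and Nnt. Of the 12 genes 1 was higher and 11 did not pass, with a median of -0.049. G6pdx and Pgd, the dehydrogenases of the pentose phosphate pathway, had log2 fold changes of -0.36 ± 0.17 and -0.23 ± 0.092 (SE, adjusted p by edgeR = 0.189 and 0.127). Both lay on the other side of 0 from Me1 and did not pass. Idh1 and H6pd lay on its side, at 0.47 and 0.26, and did not pass either (adjusted p by edgeR = 0.111 and 0.150). For H6pd every responder was above every non-responder, so the list went in both directions. Mthfd1, a folate enzyme, had 0.68 (adjusted p by edgeR = 0.0256). Of 14 NRF2 response genes, a programme that in mouse includes Me1, 3 were lower and 11 did not pass, with a median of -0.28. Nqo1, a quinone reductase, stood at 6.35 ± 2.11 CPM in responders (SD, n = 6) and 12.1 ± 0.618 CPM in non-responders (SD, n = 4), with a log2 fold change of -0.93 (adjusted p by edgeR = 0.0281). Srxn1 and Gstm3 had -0.79 and -1.14 (adjusted p by edgeR = 0.0210 and 0.0367). Gstm3 belongs to a family of near-identical genes, so its reads could be split. On the side of Me1, Ephx1 had 0.65, with every responder above every non-responder, and Gclm 0.45. Neither passed (adjusted p by edgeR = 0.0540 and 0.0938). Gclc, Txnrd1 and Ugdh also lay above 0 without passing. Of 7 thyroid hormone response genes 0 passed in edgeR's test, with 4 at an unadjusted p under 0.05 and a median of 0.31, while DESeq2 called 3 higher and 1 lower and limma-voom 0.

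Among 30 regulators of lipogenic transcription 3 were higher, 0 lower and 27 did not pass, with a median log2 fold change of 0.091. Insig1, which retains SREBP proteins in the endoplasmic reticulum and is itself a target of them, had 569, 522, 399, 449, 896 and 466.2 CPM in responders and 261, 289, 227 and 267 CPM in non-responders. The groups did not overlap, and Insig1 was higher in responders by a log2 fold change of 1.08 ± 0.22 (SE, adjusted p by edgeR = 0.0199). The untreated library had 535 CPM of Insig1. Irs2, an insulin receptor substrate, had 1.08 (adjusted p by edgeR = 0.0187), and Ppargc1b, a coactivator of SREBP proteins, 1.14 (adjusted p by edgeR = 0.0448). The LXRα gene Nr1h3 had 0.18 and did not pass. Of 22 genes of cholesterol synthesis and uptake, which answer mainly to SREBP-2, 4 were higher and 1 lower, among them the synthesis genes Ebp and Tm7sf2 at 0.60 and 0.62, the sterol carrier gene Stard4 at 0.81, and the mevalonate kinase gene Mvk at -0.83. Their median was 0.089.

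Of 22 tested genes, from a list of 23, of glyceride synthesis and lipid droplets 4 were higher and 18 did not pass, with a median of 0.084. Mogat1, an acyltransferase, had a log2 fold change of 2.88 (adjusted p by edgeR = 0.0149) at a low level, 0.895 ± 0.287 CPM in responders (SD, n = 6) and 0.126 ± 0.116 CPM in non-responders (SD, n = 4). Fitm2 had 0.62, Hsd17b13 0.66 and Gpd1 0.51. Of 11 carbohydrate response genes 1 was higher and 2 lower. The glucose transporter gene Slc2a2 had 1.10 (adjusted p by edgeR = 0.0436), and Gpi1 and Slc2a4 had -0.66 and -1.88. Slc2a4 was at 10.8 CPM in non-responder replicate 1 and at 1.55 to 5.70 CPM in the other 3. The pyruvate kinase gene Pklr, a ChREBP target, had -0.30 and did not pass.

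**Figure D5:**
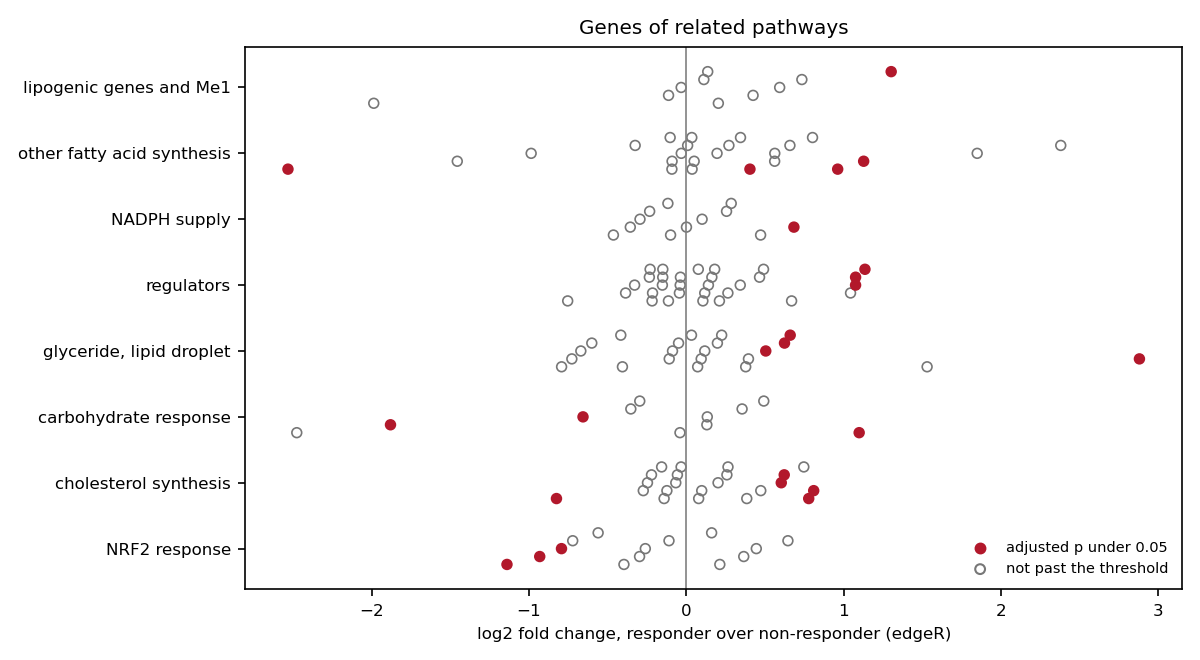
Log2 fold change of responder over non-responder (edgeR) for each tested gene of the 10 lipogenic genes and of 7 related lists; filled points passed an adjusted p of 0.05, open points did not, and vertical offsets within a list carry no meaning. Calls lie on both sides of 0 and are a minority in every list, with Me1 the single filled point in the top row.

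Adipocytes also express these genes, so their markers were examined. Adipoq was at 0 in 10 of 11 libraries and at 0.0816 CPM in non-responder replicate 2, and Lep, Plin1 and Cfd reached at most 0.101 CPM in any library. Retn reached at most 0.111 CPM, in non-responder replicate 1, and Adig at most 0.190 CPM, in responder replicate 3. Of the 8 adipocyte markers only Fabp4 and Cidec were high enough to test, and Fabp4, which macrophages and endothelium also express, fell in responders (-1.45, adjusted p by edgeR = 0.0449) and passed in 4 of 10 fits that left out 1 library. The adipocyte list summed to 5.39 to 13.9 CPM in responders and 12.6 to 27.0 CPM in non-responders. The hepatocyte markers, defining for this tissue, summed to 80500 to 94900 CPM in responders, 113600 to 141700 CPM in non-responders and 80990 CPM in the untreated library. Alb made up most of these sums, at 48440 to 62700 CPM in responders and 76300 to 92480 CPM in non-responders. At -0.60, Alb did not pass (adjusted p by edgeR = 0.0524). The 7 tested markers went in both directions, with a median log2 fold change of 0.032. Of them 1, Serpina1a, was higher in responders (1.01, adjusted p by edgeR = 0.04995, in 3 of 10 fits that left out 1 library). Apoa1 and Ahsg were lower, and each passed in 6 of 10 such fits. Ttr, at 0.81, had every responder above every non-responder and did not pass (adjusted p by edgeR = 0.0765). The part of these marker differences in the lipogenic values was not tested.

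Over all 11 libraries the Me1 and Acly levels moved most alike among the 45 pairs of the 10 genes, with Pearson r = 0.885 on log2 CPM. Me1 and Scd1 had r = 0.865, Acly and Pnpla3 r = -0.926 and Fasn and Acaca r = -0.581. Among 11413 other genes with an average log2 CPM of 1 or more, the patterns most like Me1 were those of Ahcyl1 (r = 0.989), AU022252, Marc1, N4bp2 and Zbtb44 (r = 0.977). The patterns most like Fasn were those of Prodh2 (r = 0.926), Pyroxd2, Skiv2l, Phb2 and Phb (r = 0.906). These r are descriptions over libraries that include the group difference and share their scaling.

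The untreated library had 8 of the 10 genes inside the range of the treated libraries. Me1 and Thrsp were above it, at 309 and 668 CPM. With 1 library there is no test of this difference.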

How the data were processed

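Per the labels' protocols, TRIzol was used to extract liver RNA and Illumina TruSeq chemistry to build the libraries. FastQC and the mm10 build are named in the submitters' processing notes. No source used here gives the aligner, counting tool, annotation release or strand setting. The deposited tables hold raw counts for genes and for exons, per the file headers, with 17876515 to 49884800 gene counts per library. RPKM values, which the authors also deposited, were not used.

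The 6 responder and 4 non-responder libraries were compared by edgeR (version 4.0.16, R 4.3.3) with filterByExpr, TMM scaling, the robust quasi-likelihood F test and a Benjamini-Hochberg threshold of 0.05. The SE is the log2 fold change divided by the root of F. CPM were scaled over all 11 libraries. Ratios (pseudocount 0.5) and exon shares were tested by exact permutation, two-sided, with scipy 1.17.1. Exons averaging at least 10 counts were kept. The 3′ index is a median over 3607 genes of at least 8 exons. Alternatives included DESeq2 1.42.0, limma-voom (limma 3.58.1), other scalings and filters, covariates and each library left out. Steps were tested on simulated data.

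The 10 genes, the lists and both indices were chosen with earlier results of these data known. Beyond the 10 genes, the text names up to 4 passing genes per direction of each related list, 14 genes needed to describe roles, and the 5 patterns most like Fasn and Me1; some genes that this rule names are not reported here. Other names are overlapping or related genes, cell type or tumour markers, or marked as chosen later. Replicate numbers follow accession order and pair nothing.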

Additional observations from a re-analysis of the deposited data

Results flagged for a closer look

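Among 120 groups of values examined, 4 held a library whose gap to its nearest neighbour was large for the range of its group; chance alone gives about 1 in 20. Insig1 stood at 896.4 CPM in responder replicate 5 and at 399 to 569 CPM in the other responders. Pklr stood at 217.7 CPM in the same library and at 143 to 169 CPM in the other responders. Gstm3 stood at 223.9 CPM in responder replicate 4 and at 75.7 to 129 CPM in the other responders. Apob, a hepatocyte marker, stood at 2431 CPM in non-responder replicate 1 and at 10000 CPM or more in the other non-responders.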

How the results depend on the processing

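Of all tested genes, DESeq2 called 1396 higher (7.94%) and 1661 lower (9.45%) in responders, against 723 and 1025 by edgeR. With the title number as a covariate 0 were higher and 1 lower (1857 at an unadjusted p under 0.05), and with the exon index 0 and 0. Leaving out 1 library gave 38 to 836 higher and 41 to 1158 lower, the fewest without non-responder replicate 2; without responder replicates 1, 2, 3 and 5 in turn 171, 142, 377 and 130 were higher and 254, 182, 619 and 179 lower. Among the 10 lipogenic genes DESeq2 called 3 higher, limma-voom 1 lower (Pnpla3), and either covariate 0 higher. Leaving out 1 library gave 0 to 1 higher and 0 to 1 lower. Me1 kept its sign in all 20 alternatives, with log2 fold changes from 0.70 to 1.45, and passed in 17. The cause of the lost calls was not tested. DESeq2 called 5 higher and 2 lower among the other fatty acid synthesis genes, 2 and 0 for NADPH supply, 8 and 2 among regulators, 6 and 2 among glyceride genes, 2 and 3 for carbohydrate response, 5 and 1 for cholesterol, 2 and 4 for NRF2, 5 and 2 for fasting and 2 and 1 for the clock. The Srebf1 first exon difference ran from -9.10 to 0.33 points with 1 library left out, turning positive without non-responder replicate 2. Slc2a2 turned to -0.018 with the exon index as a covariate. Depth limits the Srebf1 first exon shares. No paired analysis was possible because the replicate numbers follow accession order and mark no shared animal, litter or day.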

Other observations

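Genes of the fasting response and of the clock were examined beside the lipogenic genes, since the labels give neither feeding state nor hour. Of 14 fasting genes 2 were higher in responders, 0 lower, and 12 did not pass, with a median log2 fold change of 0.46. Acot1 and Nr1d1 passed in all 10 fits that left out 1 library, and Sesn1 in 4. Acot1, an acyl-CoA thioesterase, averaged 9.95 ± 2.85 CPM in responders (SD, n = 6) and 2.88 ± 1.05 CPM in non-responders (SD, n = 4), with a log2 fold change of 1.79 (adjusted p by edgeR = 0.0149), and Sesn1 had 0.45. Of 14 clock genes 1 was higher, 0 lower and 13 did not pass, with a median of 0.19. Nr1d1, the clock repressor REV-ERBα, averaged 159 ± 8.40 CPM in responders (SD, n = 6) and 90.9 ± 23.2 CPM in non-responders (SD, n = 4), with no overlap and a log2 fold change of 0.81 (adjusted p by edgeR = 0.0187).

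Of 5 tested cholangiocyte markers and 5 immune cell markers 0 passed in edgeR's test, with 2 and 0 at an unadjusted p under 0.05, while DESeq2 called 1 cholangiocyte marker lower and 0 immune cell markers. The cholangiocyte markers summed to 17.4 to 25.9 CPM in responders, 25.7 to 69.9 CPM in non-responders and 18.8 CPM in the untreated library. The immune cell markers summed to 94.7 to 258.5 CPM in responders, 50.8 to 189 CPM in non-responders and 135 CPM in the untreated library.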
